A study of Mus musculus with 12 samples.

Results

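Neurogenic bHLH and T-box factors are the transcription factors that carry a neural progenitor into a neuron. The 9 examined here were taken by gene name from the deposited table of 55862 genes, with 7 of the basic helix-loop-helix (bHLH) family (Neurod1, Neurod2, Neurod4, Neurod6, Neurog1, Neurog2 and Bhlhe22) and 2 of the T-box family (Eomes and Tbr1). All 9 were present in the table. RNA was sequenced from 12 mouse samples, 3 in each of 4 groups. The labels give the strain of all samples as C57BL/6, while the methods name C57BL/6 for the astrocytes and C57BL/6J for both NPC groups. ASTs were primary astrocytes from the cortex of pups at postnatal day 1 to 2, grown in medium with serum and taken at day 0 of sphere culture as the negative control, and A-iSCs were the same cells after 5 days in three-dimensional spheres on agarose. The positive controls were neural precursor cells (NPCs) of 2 ages, P56-NPCs from the subependymal zone at postnatal day 56 and P0-NPCs from the hippocampus at postnatal day 0. Both NPC groups were suspensions dissociated from tissue with no sorting step described, and they differed in age and in brain region at once, so age and region cannot be told apart. The labels do not say whether the 3 samples of a group came from separate animals or cultures, so p-values measure the spread between these samples, which may be technical.

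In the forebrain, Neurog1 and Neurog2 are proneural factors of progenitors that commit to the neuronal fate. Eomes (also called Tbr2) marks the intermediate progenitors of glutamatergic neurons, Neurod1 and Neurod4 act in newborn neurons, and Neurod2, Neurod6, Bhlhe22 and Tbr1 persist in maturing glutamatergic neurons of the cortex and hippocampus. The bHLH factors bind the E-box, a short palindromic motif, as dimers with E proteins, while Id proteins take up the E proteins and Hes proteins repress the proneural genes.

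Values are FPKM, fragments scaled to gene length and to library size, so that levels of different genes can be set side by side. Between 17077780 and 24452419 fragments per sample were counted on genes. The 9 genes were 1686 bases (Neurog1) to 5486 bases (Tbr1) long, and 3 fragments over the 3 samples of a group, taken here as the lowest level that can be told from 0, corresponded to 0.00688 FPKM (Tbr1 in P0-NPCs) to 0.0357 FPKM (Neurog1 in P56-NPCs). These floors and the counting intervals below cover counting error only. The labelled cell types were checked with marker genes. All 5 astrocyte markers had a mean of at least 1 FPKM in each of the 4 groups. Their summed level was 124 to 144 FPKM in ASTs, 885 to 1937 FPKM in A-iSCs, 750 to 783 FPKM in P56-NPCs and 131 to 183 FPKM in P0-NPCs. Of the 5, 3 were lower and 2 higher in P0-NPCs than in ASTs, where 40.9% and 38.1% of all genes tested were. The 8 neuron markers summed to 900 to 1079 FPKM in P0-NPCs, 231 to 276 FPKM in P56-NPCs, 89.0 to 125 FPKM in ASTs and 55.3 to 71.4 FPKM in A-iSCs. The lower sum in A-iSCs than in ASTs came mostly from Stmn2, named after its values were seen (53.8 ± 11.2 FPKM in the AST samples against 7.16 ± 1.65), while 2 of the 5 neuron markers tested between these groups were higher in A-iSCs, both under 1 FPKM in ASTs, and 1 lower, beside 25.2% higher and 29.6% lower among all genes tested. The 4 oligodendrocyte markers summed to 7851 to 8963 FPKM in P56-NPCs and to no more than 9.03 FPKM in any sample of the other groups. Mitochondrial genes took 16.5 to 17.6% of the fragments in P56-NPCs and 2.94 to 7.03% in the other samples.

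The stretches of 250 bases before the transcription start of 3 of the bHLH genes are shown, because Neurod2 and Neurod6 were the 2 highest of the 9 factors in P0-NPCs and Neurog2 was the highest of them in A-iSCs. They were read from RefSeq on GRCm38.p6, 5′ to 3′ on the strand of the gene, with every CANNTG E-box in capitals. The Neurod2 stretch lies at chr11:98329646-98329895 on the minus strand, the Neurod6 stretch at chr6:55681264-55681513 on the minus strand and the Neurog2 stretch at chr3:127632886-127633135 on the plus strand.
Neurod2: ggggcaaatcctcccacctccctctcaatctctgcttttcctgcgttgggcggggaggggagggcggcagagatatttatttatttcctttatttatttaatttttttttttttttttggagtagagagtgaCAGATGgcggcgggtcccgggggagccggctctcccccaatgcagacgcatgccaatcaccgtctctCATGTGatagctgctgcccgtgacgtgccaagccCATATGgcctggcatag
Neurod6: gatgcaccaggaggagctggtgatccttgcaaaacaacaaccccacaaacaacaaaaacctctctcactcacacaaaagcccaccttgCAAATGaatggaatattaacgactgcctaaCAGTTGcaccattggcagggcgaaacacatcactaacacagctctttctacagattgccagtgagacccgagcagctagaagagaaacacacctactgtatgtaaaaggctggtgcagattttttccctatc
Neurog2: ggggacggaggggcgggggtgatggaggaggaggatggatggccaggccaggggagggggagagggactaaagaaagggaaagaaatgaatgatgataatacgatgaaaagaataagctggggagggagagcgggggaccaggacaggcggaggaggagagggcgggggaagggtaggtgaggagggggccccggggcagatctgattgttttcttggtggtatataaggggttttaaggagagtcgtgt
Neurod2 held 3 E-boxes, Neurod6 held 2 and Neurog2 held 0. The first E-box of Neurod2, at position -118 from the start, reads CAGATG, the form bound by NeuroD and Neurogenin dimers. RefSeq entries were found for 8 of the 9 factors, with 2 for Neurod4, and CANNTG occurred in 4 of these 9 stretches, those of Neurod1, Neurod2, Neurod6 and Tbr1, as against 66.2% of all 32851 promoters over the same length. CAGATG on either strand (CATCTG when reversed) was found in 14.4% of all promoters and, among the factors, in Neurod2 only. CAGCTG, another E-box form, was in 13.0% of all promoters, and the T-box motif AGGTGTGA (TCACACCT on the other strand) in 1.12%. Neither was found in the stretches of these factors. Both narrower E-box forms also count as CANNTG. These matches are descriptions of letters and not binding sites.

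The group that stood apart was P0-NPCs. Neurod2, Neurod6 and Neurod1, 3 closely related factors of young glutamatergic neurons, ranked 3, 4 and 5 by mean level among the 107 bHLH genes of the table in P0-NPCs, behind the inhibitors Id2 and Id3. Tbr1 and Eomes ranked 1 and 2 among the 17 T-box genes. In ASTs the same 5 genes were at or below 0.362 FPKM on average, and in A-iSCs at or below 0.378 FPKM.

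**Figure D1:**
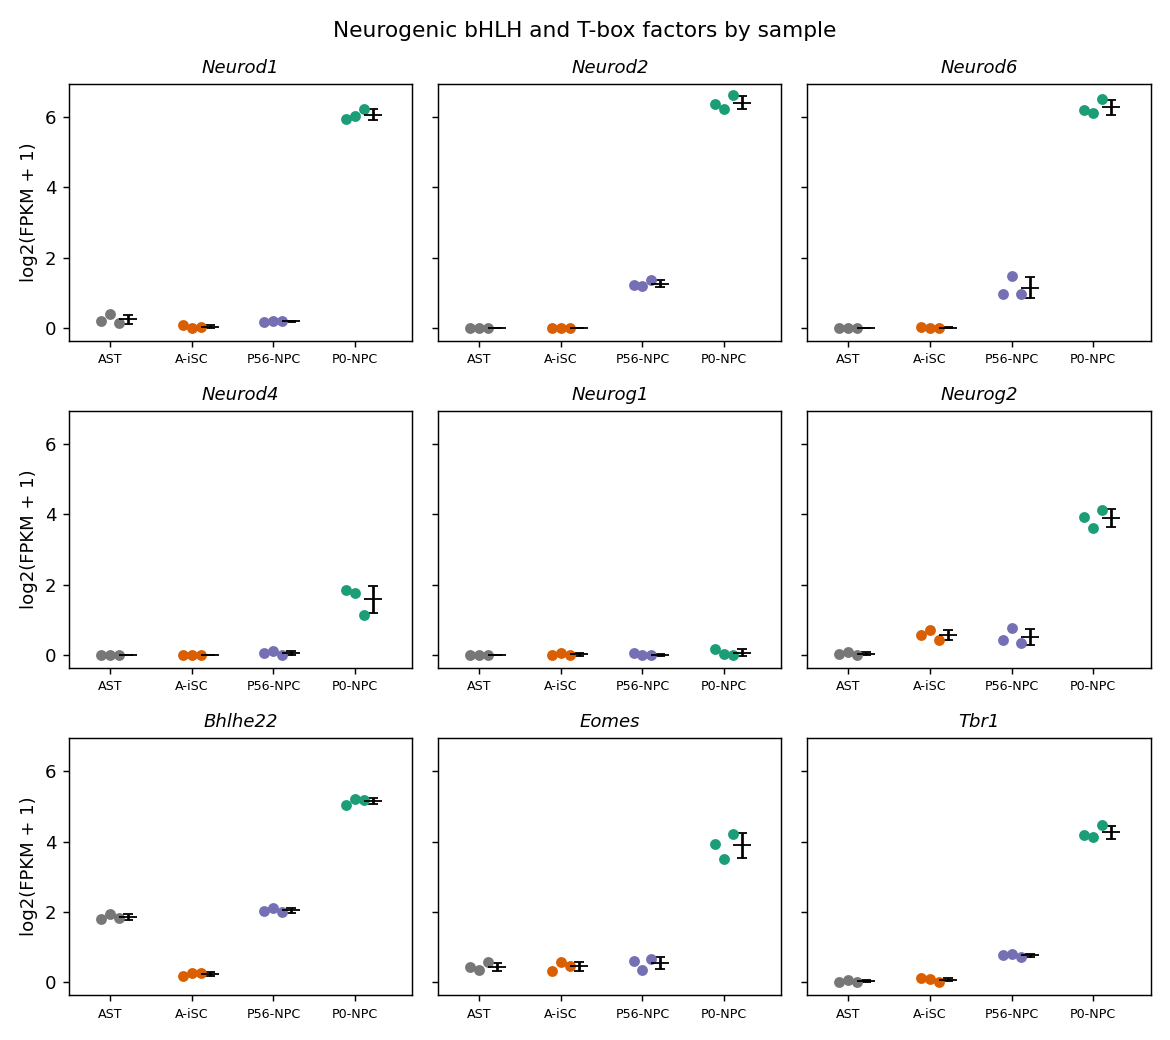
Level of each of the 9 factors as log2(FPKM + 1) in the 12 samples, 1 panel per gene with a shared vertical axis. Points are samples and bars the mean with the SD of 3 samples. P0-NPCs lie above the other groups in 8 panels, and the share of all genes with this pattern was not counted. All groups are near 0 for Neurog1. Bhlhe22 is the factor with a clear level in ASTs and P56-NPCs as well.

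Among the NeuroD genes, Neurod2 (11:98325415-98329648, GRCm38, minus strand), which acts in the maturation of excitatory neurons, was measured at 74.2, 82.1 and 96.8 FPKM in P0-NPCs and at 1.29, 1.32 and 1.58 FPKM in P56-NPCs. No fragment was counted on it in any AST or A-iSC sample. Its level was therefore at least 4916-fold higher in P0-NPCs and at least 81.4-fold higher in P56-NPCs than in ASTs, with the floor of 3 fragments over the group in place of 0. P0-NPCs exceeded P56-NPCs by 60.3-fold (95% counting interval 52.8 to 69.3), and the groups did not overlap.

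Neurod6 (6:55677822-55681263, minus strand), a marker of committed glutamatergic neurons, was at 67.9, 72.5 and 89.7 FPKM in P0-NPCs and at 0.960, 0.965 and 1.80 FPKM in P56-NPCs. ASTs had no fragment and A-iSCs had 1 in all. The P56-NPC samples were not alike, since replicate 2 held 62 fragments and the others 36 and 34. P0-NPCs were 62.4-fold (52.5 to 74.6) above P56-NPCs.

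Neurod1 (2:79452521-79456751, minus strand), which drives terminal neuronal differentiation and is needed for hippocampal granule neurons, had 60.2, 64.3 and 73.8 FPKM in P0-NPCs. In P56-NPCs it had 0.127, 0.137 and 0.156 FPKM, which rests on 6, 6 and 7 fragments. The ratio of P0-NPCs to P56-NPCs was 476 (305 to 791), the highest among the 9 factors. ASTs, at 0.0987, 0.153 and 0.307 FPKM, overlapped with P56-NPCs and not with A-iSCs, at 0, 0.0137 and 0.0545 FPKM. Cerkl runs across Neurod1 on the same strand with 0.0237 to 0.228 FPKM on average per group, so that at levels this low fragments of the 2 genes may not be separable.

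Neurod4 (10:130268152-130280240, minus strand), a factor of early differentiating neurons, was the lowest NeuroD gene in P0-NPCs, at 1.20, 2.39 and 2.59 FPKM. It had 7 fragments in P56-NPCs and 0 in ASTs and in A-iSCs. P0-NPC replicate 3 held the lowest level of Neurod4, although it held the highest levels of Neurod1, Neurod2, Neurod6, Neurog2, Eomes and Tbr1.

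Of the proneural genes, Neurog1 (13:56250478-56252163, minus strand) was close to the floor everywhere. It had 5, 1 and 0 fragments in the P0-NPC samples, 2 in all in A-iSCs, 1 in P56-NPCs and 0 in ASTs, so no difference was detectable at this depth. Neurog2 (3:127633135-127635631, plus strand) had 11.2, 14.3 and 16.4 FPKM in P0-NPCs, 0.273, 0.336 and 0.699 FPKM in P56-NPCs, 0.352, 0.490 and 0.642 FPKM in A-iSCs and 0, 0.0268 and 0.0664 FPKM in ASTs. The A-iSC and P56-NPC samples overlapped with each other, and both groups lay above every AST sample and below every P0-NPC sample.

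Bhlhe22 (3:18054174-18057517, plus strand), a repressor in cortical and hippocampal projection neurons, was the one factor with a mean above 1 FPKM in ASTs. It was measured at 2.50, 2.53 and 2.86 FPKM in ASTs, at 0.134, 0.189 and 0.212 FPKM in A-iSCs, 3.00, 3.05 and 3.35 FPKM in P56-NPCs and 32.1, 35.3 and 36.1 FPKM in P0-NPCs. The A-iSC samples were the lowest and none overlapped with another group.

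Of the T-box genes, Tbr1 (2:61802930-61814114, plus strand), a factor of early-born glutamatergic neurons, had 16.5, 17.1 and 21.3 FPKM in P0-NPCs and 0.653, 0.704 and 0.761 FPKM in P56-NPCs. ASTs (0.00982, 0.0109 and 0.0539 FPKM) and A-iSCs (0.0136, 0.0613 and 0.0904 FPKM) overlapped. Eomes (9:118478212-118486132, plus strand) had 10.3, 14.4 and 17.6 FPKM in P0-NPCs. Its ranges overlapped among the other 3 groups, with 0.261 to 0.479 FPKM in ASTs, 0.251 to 0.496 FPKM in A-iSCs and 0.285 to 0.584 FPKM in P56-NPCs. The lncRNA Gm33460 overlaps the end of Eomes on the opposite strand at 0.0775 to 0.427 FPKM on average per group. Whether the counting used strand is not stated, so the low Eomes levels may hold fragments of Gm33460.

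Within P0-NPCs the order of mean levels was Neurod2, Neurod6, Neurod1, Bhlhe22, Tbr1, Eomes, Neurog2, Neurod4 and Neurog1. Neurod2 was above Neurod6, and Neurod6 above Neurod1, in each of 3 samples, although the ranges of these neighbours overlapped between samples. Tbr1 and Eomes overlapped likewise, and so did Eomes and Neurog2, while the remaining neighbours did not. In P56-NPCs Bhlhe22 came first, above Neurod2 in 3 of 3 samples without overlap, and in A-iSCs Neurog2 and Eomes came first and overlapped.

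Groups were compared 2 at a time with limma on log2(FPKM + 1). A gene was tested where its mean reached 1 FPKM in at least 1 of the groups, and a call needed a p under 0.05 after Benjamini-Hochberg adjustment over all tested genes. A fold change on this scale understates the change of a low gene. A factor that passed the filter only through the group where it was high had to differ. This was so for most factors in P0-NPCs, for Neurod2 and Neurod6 in P56-NPCs and for Bhlhe22 wherever it was set against A-iSCs, so the counts and calls are an account and nothing more. The same holds for the genes of the lists below that reached 1 FPKM in only 1 of the groups compared.

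P0-NPCs were compared with ASTs to set the neonatal positive control against the negative control. All 8 factors tested were higher in P0-NPCs and Neurog1 was not tested, whereas 38.1% of the 15010 genes tested were called higher and 40.9% lower. The differences in log2(FPKM + 1) ran from 1.58 ± 0.18 (SE) for Neurod4 (limma adjusted p = 8.41e-05) to 6.41 ± 0.11 for Neurod2 (limma adjusted p = 1.15e-08). As ratios of fragments, Tbr1 was 699-fold (355 to 1620), Neurog2 431-fold (168 to 1583), Neurod1 348-fold (242 to 519), Eomes 39.0-fold (31.4 to 49.1) and Bhlhe22 13.1-fold (11.99 to 14.4) above ASTs. Without AST replicate 2, which held 6 of the 8 Tbr1 fragments, 3 of the 4 Neurog2 fragments and 17 of the 29 Neurod1 fragments of its group, these were 1777-fold for Tbr1, 1096-fold for Neurog2 and 534-fold for Neurod1, and without AST replicate 3 Neurog2 was 287-fold higher. Between the same groups the 8 neuron markers were higher in P0-NPCs, with the sums given above. So were the 3 endothelial markers, with a sum of 65.2 to 65.4 FPKM against at most 2.67 FPKM, while the 3 cycling markers were lower, at 26.7 to 34.3 against 60.5 to 63.2 FPKM. Their part in these differences was not tested.

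P0-NPCs were also compared with P56-NPCs, the older positive control. Again 8 factors were higher in P0-NPCs, where 39.0% of 15394 tested genes were called higher and 39.7% lower. Neurod1 differed by 5.88 ± 0.08 in log2(FPKM + 1) (limma adjusted p = 6.47e-09), Neurod2 by 5.15 ± 0.11 and Neurod6 by 5.13 ± 0.16. As ratios of fragments, Neurod4 was 48.6-fold (23.4 to 121), Neurog2 32.2-fold (24.2 to 43.8), Eomes 30.0-fold (24.5 to 37.0), Tbr1 26.0-fold (22.5 to 30.1) and Bhlhe22 11.1-fold (10.1 to 12.1) above P56-NPCs. Without P56-NPC replicate 2 the ratio of Neurod4 was 76.8. The summed neuron markers, the mitochondrial share and the oligodendrocyte markers given above moved between the same groups. Of the 8 neuron markers 5 were higher and 2 lower in P0-NPCs, beside 39.0% and 39.7% of all tested genes. The 2 lower were Map2 and Snap25, named after their values were seen. The 5 astrocyte, 4 microglia and 2 oligodendrocyte precursor markers and 2 of the 3 ependymal markers were lower in P0-NPCs. The 3 endothelial and 3 cycling markers were higher there. The part of all these in the differences was not tested. In bulk samples, fewer cells of a type and less RNA per cell cannot be told apart.

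**Figure D2:**
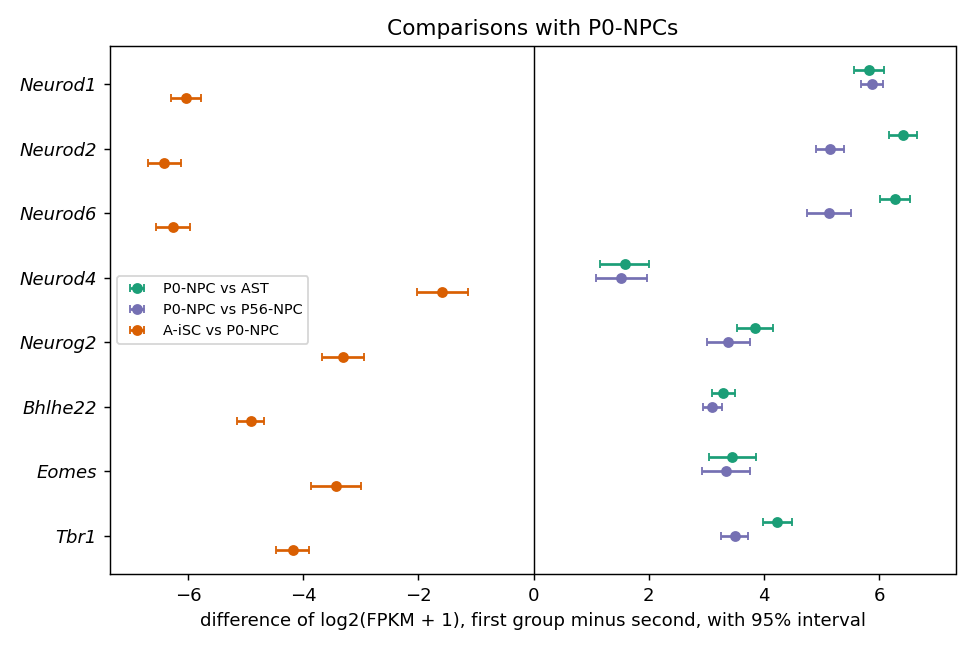
Difference of log2(FPKM + 1) in the 3 comparisons that include P0-NPCs, for the 8 factors tested. Points are limma estimates, bars their 95% intervals, and the direction is the group named first minus the second. All P0-NPC minus AST and P0-NPC minus P56-NPC differences lie above 0 and all A-iSC minus P0-NPC differences below 0, the comparisons sharing their P0-NPC samples.

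The balance between factors could be read within a sample, where scaling plays no part. Neurod1 stood at 0.0959, 0.0983 and 0.106 times the level of Neurod2 in P56-NPCs and at 0.733, 0.763 and 0.866 times in P0-NPCs. The ranges did not overlap, and the exact two-sided permutation p was 0.1, the smallest that 3 samples against 3 allow. Bhlhe22 went the other way, at 1.89 to 2.60 times Neurod2 in P56-NPCs and 0.365 to 0.486 times in P0-NPCs (exact permutation p = 0.1). Neurod6 per Neurod2 averaged 0.910 ± 0.424 (SD, n = 3) in P56-NPCs and 0.908 ± 0.023 in P0-NPCs, with overlapping ranges (exact permutation p = 0.9), and Eomes per Tbr1 averaged 0.673 ± 0.269 and 0.765 ± 0.12 (exact permutation p = 0.7). These 4 ratios were chosen with the levels known. Over the 4, the Benjamini-Hochberg adjusted value of the lowest p was 0.2.

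**Figure D3:**
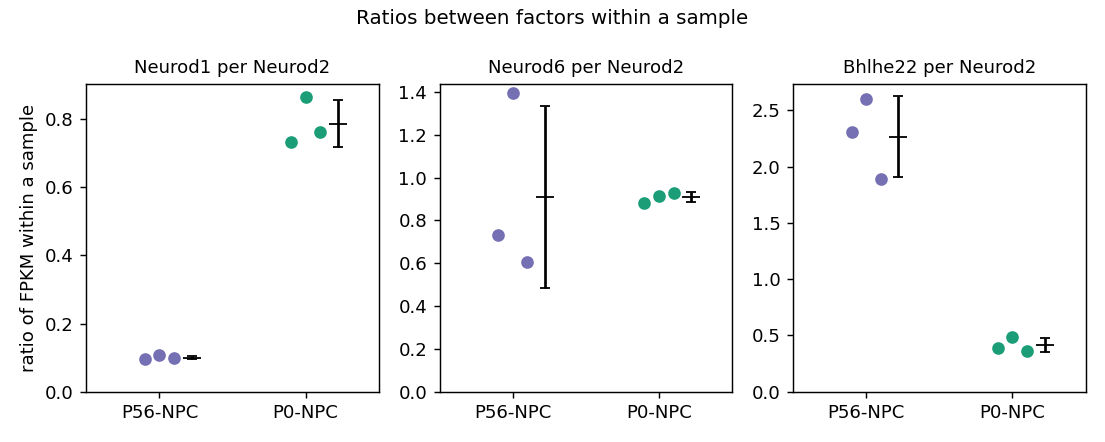
Ratio of the FPKM of Neurod1, Neurod6 and Bhlhe22 to that of Neurod2 within each sample of P56-NPCs and P0-NPCs, each panel with its own vertical axis from 0. Points are samples and bars the mean with the SD of 3 samples. The ratio of Neurod1 is higher in P0-NPCs, that of Bhlhe22 is higher in P56-NPCs, and that of Neurod6 overlaps.

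P56-NPCs were compared with ASTs to set the adult positive control against the negative control. Of 3 factors tested, Neurod2 was higher by 1.26 ± 0.09 in log2(FPKM + 1) (limma adjusted p = 9.21e-06) and Neurod6 by 1.14 ± 0.15 (limma adjusted p = 0.000298), where 39.1% of 15146 tested genes were called higher and 39.8% lower. Without P56-NPC replicate 2 the mean of Neurod6 fell under the filter, which left 1 factor called. Both had passed the filter through P56-NPCs alone. With no filter the same differences had limma adjusted p = 2.39e-05 (Neurod2) and 0.00094 (Neurod6). Bhlhe22 did not pass the test, with a difference of 0.19 (95% interval 0.00363 to 0.373, limma adjusted p = 0.0585). It passed without AST replicate 2 (0.23, limma adjusted p = 0.0216), and with scaling by library size alone its difference was -0.063.
Of the 6 factors under the filter, Neurog2 and Tbr1 were called higher in P56-NPCs when no filter was set, by 0.47 (limma adjusted p = 0.0145) and 0.73 (limma adjusted p = 5.15e-05) in log2(FPKM + 1). In fragments, Tbr1 had 193 against 8, a ratio of 26.9 (13.4 to 63.2), and Neurog2 had 48 against 4, a ratio of 13.4 (4.90 to 51.1). Without AST replicate 2 these ratios were 68.4 and 34.0, and without AST replicate 3 that of Neurog2 was 8.91. Between the same groups the neuron and oligodendrocyte markers and the mitochondrial share given above moved, and so did the 4 microglia markers, with a sum of 179 to 189 FPKM in P56-NPCs and 17.1 to 20.0 FPKM in ASTs. The 3 ependymal markers summed to 190 to 247 FPKM in P56-NPCs and to 40.7 to 48.1 FPKM in ASTs. The 5 astrocyte, 3 ependymal and 2 oligodendrocyte precursor markers were higher and the 3 cycling markers lower in P56-NPCs. Their part in these differences was not tested.

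A-iSCs were compared with ASTs to ask what 5 days in spheres changed. Bhlhe22 fell, and it was the one factor of the 9 that passed the filter here. ASTs had 2.63 ± 0.20 FPKM (SD, n = 3) and A-iSCs 0.178 ± 0.040 FPKM, which was 14.5-fold lower (10.6 to 20.3). The difference was -1.62 ± 0.11 in log2(FPKM + 1) (limma adjusted p = 2.48e-05), where 29.6% of 14087 tested genes were called lower and 25.2% higher. Since it passed the filter through ASTs alone, it could only be called lower, and with no filter its limma adjusted p was 0.000241.
Neurog2 was under the filter, but its fragments moved the other way, from 1, 3 and 0 in the AST samples to 22, 34 and 21 in the A-iSC samples, a ratio of 15.1 (5.68 to 57.0), which was 38.5 without AST replicate 2 and 10.1 without AST replicate 3. It was called higher when no filter was set (difference 0.53, limma adjusted p = 0.00425) and by limma-voom over genes with at least 10 fragments (log2 ratio 3.84 ± 0.75, adjusted p = 0.00280), a test chosen after the data were seen. Its level of 0.495 ± 0.145 FPKM in A-iSCs was 28.5-fold (22.7 to 36.2) below that in P0-NPCs and 1.13 times (0.779 to 1.66) that in P56-NPCs.
Neurod1 had 29 fragments in ASTs and 4 in A-iSCs, which was 9.22-fold lower (3.24 to 36.1). A-iSC replicate 1 held 3 of the 4 fragments, and the fold was 26.4 without it, 6.12 without A-iSC replicate 2 and 6.01 without AST replicate 2. The limma-voom test called it lower (adjusted p = 0.0163) and limma with no filter did not (adjusted p = 0.0655). Eomes, with a ratio of 1.07 (0.799 to 1.44), and Tbr1, with a ratio of 1.97 (0.829 to 5.16) that was 5.00 without AST replicate 2, passed neither test. Neurod2 and Neurod4 had no fragment in either group, and the single fragment of Neurod6 and the 2 fragments of Neurog1 in A-iSCs were under the floor.
Between the same groups the 4 microglia markers had a sum of 17.1 to 20.0 FPKM in the AST samples and of 176 to 228 FPKM in the A-iSC samples, and the sum of the 3 cycling markers was 60.5 to 63.2 and 10.7 to 13.6 FPKM. Of the 5 astrocyte markers 4 were higher in A-iSCs. Of the 8 neuron markers 3 reached a mean of 1 FPKM in ASTs and 5 in A-iSCs. The part of these shifts in the changes of Bhlhe22, Neurog2 and Neurod1 was not tested.

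**Figure D4:**
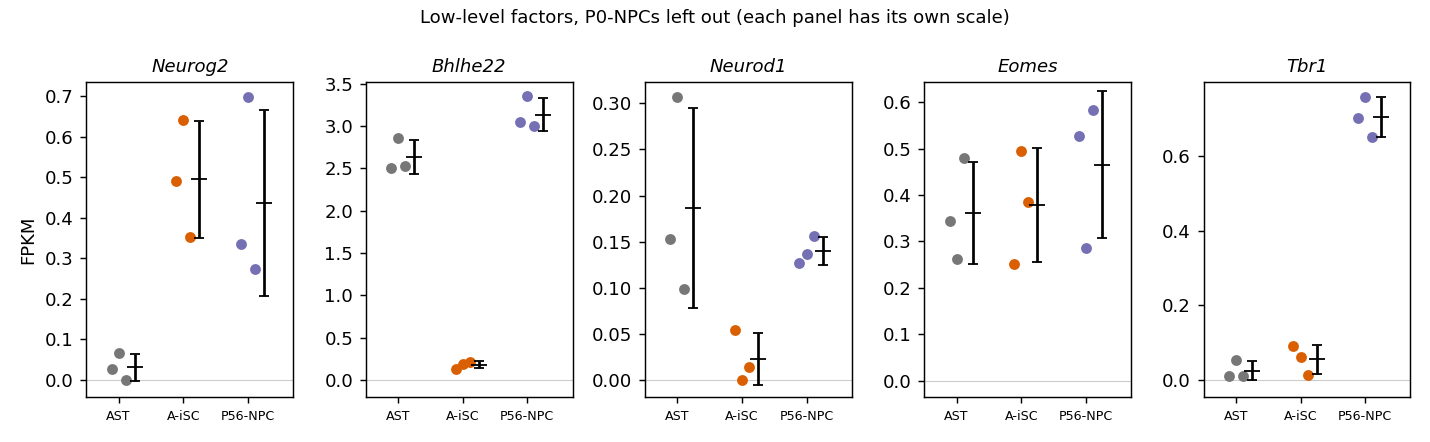
FPKM of 5 factors in ASTs, A-iSCs and P56-NPCs, with P0-NPCs left out so that the low levels can be seen and with a vertical axis of its own in each panel. Points are samples and bars the mean with the SD of 3 samples. Neurog2 is higher and Bhlhe22 and Neurod1 are lower in A-iSCs than in ASTs without overlap, while Eomes overlaps in all 3 groups.

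A-iSCs were then set against each positive control. Against P0-NPCs, 8 factors were lower in A-iSCs, where 33.6% of 15170 tested genes were called lower and 31.5% higher. Differences ran from -1.58 ± 0.19 for Neurod4 (limma adjusted p = 0.000197) to -6.41 ± 0.12 for Neurod2 (limma adjusted p = 1.63e-07). Neurod2 was at least 6253-fold lower and Bhlhe22 191-fold lower (141 to 264). Against P56-NPCs, the 3 factors tested were lower, where 30.9% of 15044 tested genes were called lower and 30.1% higher. They were Bhlhe22 (-1.81 ± 0.10, limma adjusted p = 6.64e-06), Neurod2 (-1.26 ± 0.10, limma adjusted p = 5.15e-05) and Neurod6 (-1.13 ± 0.16, limma adjusted p = 0.000782). All 3 had passed the filter through P56-NPCs alone and could only be called lower. Neurod6 fell under the filter, and was not tested, with scaling by library size and without P56-NPC replicate 2, each of which left 2 factors called. With no filter they were called lower as well (limma adjusted p = 6.66e-05, 0.000111 and 0.0021). In that fit Tbr1 (-0.69, limma adjusted p = 0.000339) and Neurod1 (-0.16, limma adjusted p = 0.0113) were called lower too. Neurog2 and Eomes were not called in that fit (limma adjusted p = 0.743 and 0.589). Of the 8 neuron markers 8 were lower in A-iSCs than in P0-NPCs and 7 lower than in P56-NPCs, and the 4 oligodendrocyte markers were lower than in P56-NPCs. Against P0-NPCs the 4 microglia markers (a sum of 176 to 228 against 20.0 to 27.8 FPKM) and 4 of the 5 astrocyte markers were higher in A-iSCs, and the 3 endothelial and 3 cycling markers lower. Against P56-NPCs the 3 cycling markers were higher in A-iSCs and the 3 ependymal and 2 oligodendrocyte precursor markers lower. Mitochondrial genes took 3.05 to 7.03% of the fragments in A-iSCs against 16.5 to 17.6% in P56-NPCs. The part of these markers and of this share in the lower factor levels was not tested.

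All 10 listed partners and opponents of the bHLH factors reached a mean of 1 FPKM in A-iSCs, P56-NPCs and P0-NPCs, and 9 did in ASTs. Of 10 such genes, 5 were higher and 5 lower in P0-NPCs than in ASTs, where the shares over all tested genes were 38.1% higher and 40.9% lower, with a median difference of 0.05 in log2(FPKM + 1) against -0.07 over all genes tested, and of -0.05 with upper-quartile scaling. Tcf4, an E protein, rose from 7.17 ± 0.16 FPKM in ASTs to 35.7 ± 2.67 FPKM in P0-NPCs. Id1 was at 336 ± 83.4 FPKM in ASTs, 183 ± 49.4 in A-iSCs, 14.0 ± 0.44 in P56-NPCs and 65.4 ± 5.24 in P0-NPCs. Id3 followed the same order of groups (279, 224, 20.9 and 102 FPKM), and Id2 was highest in A-iSCs, at 139 ± 6.28 FPKM. In A-iSCs against ASTs 3 of the 10 were higher and 2 lower, where the shares over all tested genes were 25.2% and 29.6%, and with scaling by library size 5 were higher and 1 lower. Unless stated otherwise, genes of this and the following lists are named by mean level in P0-NPCs, or in P56-NPCs for the GABAergic list.

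Among 11 other neural bHLH genes, Nhlh1 and Nhlh2, factors of newborn neurons, were seen in P0-NPCs at 5.58 ± 1.05 and 10.6 ± 2.34 FPKM and at or below 0.0745 FPKM on average in the other groups. Olig1 and Olig2, factors of the oligodendrocyte lineage, were highest in P56-NPCs, at 343 ± 8.88 and 78.8 ± 3.38 FPKM.

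Known targets of Neurog and Neurod factors were also measured. Of 9 listed, 8 were higher and 1 was not called in A-iSCs against ASTs, where the shares over all tested genes were 25.2% higher and 29.6% lower. In ASTs 5 of the 9 reached a mean of 1 FPKM, so the other 4, Dcx among them, had passed the filter through A-iSCs alone and could only be called higher. In P0-NPCs against ASTs, where the same 4 had passed through P0-NPCs alone, 8 were higher and 1 lower beside 38.1% and 40.9% of all tested genes. In A-iSCs against P0-NPCs 1 was higher and 8 lower beside 31.5% and 33.6%. Dcx, a microtubule protein of migrating neurons that is also among the neuron markers, rose from 0.0833 ± 0.0245 FPKM in ASTs to 2.86 ± 0.19 in A-iSCs, beside 3.34 ± 0.40 in P56-NPCs and 88.1 ± 6.73 in P0-NPCs. Rnd2, a GTPase of neuronal migration, rose from 5.11 ± 0.25 to 19.9 ± 2.85 FPKM, Insm1 from 1.16 ± 0.26 to 4.32 ± 0.94 FPKM and Hes6 from 18.8 ± 2.60 to 27.1 ± 3.07 FPKM. With upper-quartile scaling 7 of the 9 were higher, since Hes6 was no longer called. Gadd45g, named after its values were seen, was the target that was lower in P0-NPCs than in ASTs (25.6 ± 6.40 against 206 ± 57.0 FPKM) and was the one not called between A-iSCs and ASTs. Against P56-NPCs, 3 of the 9 targets were higher in A-iSCs, 2 lower and 4 not called, where the shares over all tested genes were 30.1% higher and 30.9% lower.

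**Figure D5:**
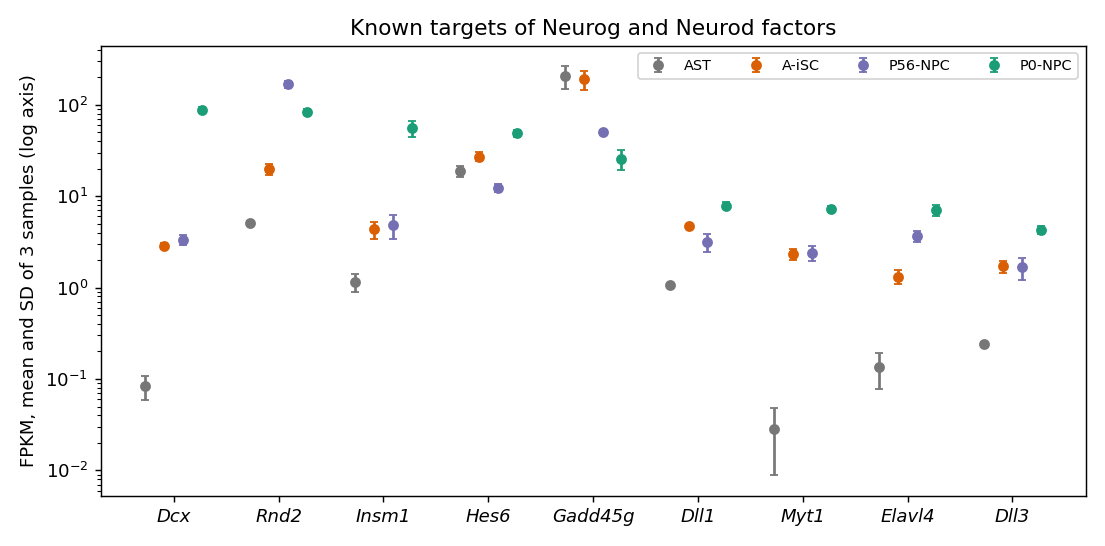
Mean FPKM of the 9 listed targets of Neurog and Neurod factors in each group on a log axis, with the SD of 3 samples as bars. Dcx lies at 0.0833 FPKM in ASTs but in A-iSCs at 2.86 FPKM, Gadd45g is high in both, and P0-NPCs lie above A-iSCs for all targets but Gadd45g.

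The lineage lists gave the setting of these factors. Of 11 genes of the glutamatergic lineage, 11 were higher in P0-NPCs than in ASTs, of which 5 reached 1 FPKM in ASTs, and 10 were higher and 1 lower in P0-NPCs than in P56-NPCs, with a median difference of 1.31 in log2(FPKM + 1) against -0.01 over all genes tested. The shares of all tested genes were 38.1% higher and 40.9% lower in the first of these comparisons and 39.0% and 39.7% in the second. Slc17a7, named after its values were seen, was the gene lower in P0-NPCs than in P56-NPCs (4.05 ± 1.85 against 10.3 ± 0.94 FPKM). Lhx2, Emx1, Emx2 and Fezf2, patterning factors of the dorsal forebrain, were at 91.7 ± 9.81, 33.1 ± 4.21, 26.5 ± 4.57 and 17.9 ± 1.37 FPKM in P0-NPCs. In A-iSCs they were at 15.0 ± 1.45, 1.49 ± 0.40, 7.45 ± 1.25 and 5.57 ± 1.17 FPKM, with Lhx2 lower and the other 3 higher than in ASTs, Emx2 not under upper-quartile scaling. Emx1 and Fezf2, at 0.244 and 0.673 FPKM in ASTs, had passed the filter through A-iSCs alone and could only be called higher. Of the 7 listed genes tested between A-iSCs and ASTs, 4 were higher and 1 lower, beside 25.2% and 29.6% of all tested genes. Of 12 genes of the GABAergic lineage, 3 were higher and 6 lower in P0-NPCs than in P56-NPCs, beside the same 39.0% and 39.7%, with a median difference of -0.39, which turned to 0.23 with scaling by library size. Gad1 and Gad2, the enzymes of GABA synthesis, were at 16.2 ± 0.28 and 13.8 ± 2.01 FPKM in P56-NPCs and at 5.06 ± 1.28 and 5.69 ± 0.22 FPKM in P0-NPCs. Dlx1 and Dlx2, the subpallial factors, were at 16.6 ± 1.26 and 9.71 ± 3.80 FPKM in P56-NPCs and were not called between the NPC groups.

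The other T-box genes were measured as well. In ASTs Tbx2 (3.15 ± 0.69 FPKM), Tbx15 (2.41 ± 0.14), Tbx18 (1.74 ± 0.09) and Tbx3 (1.08 ± 0.19) were above Eomes and Tbr1. Of 13 such genes 6 were tested in A-iSCs against ASTs, with 1 higher and 5 lower, beside 25.2% and 29.6% of all tested genes. Tbx2 alone reached 1 FPKM in both groups, so the direction of the other 5 was set by the filter. In P0-NPCs against ASTs 5 were tested, with 1 higher and 4 lower, beside 38.1% and 40.9%, and 3 of them reached 1 FPKM in both groups. In P0-NPCs against P56-NPCs the 3 tested had all passed through P0-NPCs alone and could only be called higher. Tbx18, a gene of mesenchymal and mural cells, was the one higher in P0-NPCs than in ASTs (4.16 ± 0.38 FPKM), where the 3 endothelial markers summed to 65.2 to 65.4 FPKM against no more than 2.94 FPKM in any other sample. The part of these markers was not tested.

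The mean of log2(FPKM + 1) over the 9 factors was compared with each of 13652 protein-coding genes over the 12 samples. The 8 genes most like it were Prrt4, Sh3rf3, Kcnb2, Grp, F13a1, Clstn2, Thsd7b and Srrm4, with Pearson r between 0.996 and 0.998. The samples fall into 4 groups with P0-NPCs far above the rest, so that r describes that step, and the samples of a group share their source. Grp, a neuropeptide gene, was at 22.4 FPKM on average in P0-NPCs and 0.496 FPKM in P56-NPCs, with 0 in ASTs. Srrm4, a splicing regulator of neuronal exons, was at 9.71 FPKM in P0-NPCs and at 0.602 to 1.26 FPKM in the other groups.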

How the data were processed

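RNA of 12 samples, 3 in each of 4 groups, was analysed. The authors deposited 1 table with the FPKM of 55862 genes per sample and the gene lengths, with libraries made with a NEBNext Ultra kit. The unit was inferred from the values, since within a sample all products of FPKM and gene length were whole multiples of the same smallest product (100% of values within 0.02 fragments), which gave back the fragments. The library sizes behind the FPKM were 0.744 to 1.218 times the fragments counted, so the values already held a scaling between samples. The submitters' processing notes name Bowtie 0.12.2 and mm8, whereas GENCODE M21 (GRCm38) shared 55154 gene identifiers with the table and gave the same position for 54899, the 9 factors included. Positions are therefore given on GRCm38.

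limma 3.58.1 in R 4.3.3 was run with a variance trend on log2(FPKM + 1), with only the 6 samples of the groups compared and no covariate, over genes with a mean of at least 1 FPKM in at least 1 group. DESeq2, the tool in the methods of the study, was not run here. Count models were reserved for tables deposited as counts, and the recovered fragments went into limma-voom. When checked on simulated data, the test gave no wrong direction and called most large changes, but it missed about as many small changes as it found, and unchanged genes made up more of its calls than the nominal rate. The acceptance criteria of that check were loosened after a first version had not been met. Counting intervals of fragment ratios are exact 95% intervals. Alternatives were scaling by library size or upper quartile, a fit of all 4 groups together, the replicate block, no filter, a pseudocount of 0.1, limma-voom on the recovered fragments and leaving out each sample. limma-voom over genes with at least 10 fragments, and fragment ratios without each sample, were added after the data were seen. The factors, gene lists and marker genes were chosen with earlier results of these data known. The text names all 9 factors, up to 4 genes per list by mean level and the 8 genes most correlated with the factors, and further genes where it says that they were named after their values were seen. Other steps ran in Python 3.11.15 (scipy 1.17.1, numpy 2.4.6, pandas 2.3.3), with plots from matplotlib 3.10.9. Motifs were searched on both strands of the 250 bases before each RefSeq start (GRCm38.p6).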

Additional observations from a re-analysis of the deposited data

How the results depend on the processing

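Of 442 values of single factors under an alternative, 439 kept their direction and their side of the threshold, 2 came to pass it and 1 changed sign, that of Bhlhe22 in P56-NPCs against ASTs with scaling by library size (-0.063). The number of factors called was kept within 1.5 times in the 3 comparisons with P0-NPCs under every alternative run. Between P56-NPCs and ASTs the 2 factors called higher became 1 with scaling by library size, 4 with no filter, 4 with limma-voom over genes with 10 fragments, and 1 to 3 when single samples were left out, the 1 without P56-NPC replicate 2. Between A-iSCs and ASTs, 1 factor was called higher with no filter and 1 with limma-voom over genes with 10 fragments, in place of 0 (the filter left Bhlhe22 alone to be tested), and that limma-voom test called 2 lower in place of 1. Between A-iSCs and P56-NPCs, 5 were called lower with no filter and 5 with limma-voom over genes with 10 fragments, in place of 3, and 2 with scaling by library size and without P56-NPC replicate 2, where Neurod6 fell under the filter. No filter and that limma-voom test take in factors that the filter had left out. Scaling by library size moved the median difference of all genes by -0.31 (P56-NPCs against ASTs) to 0.53 (P0-NPCs against P56-NPCs), and the share of higher genes among all calls from 49.6% to 73.3% in the latter, from 49.4% to 74.5% between A-iSCs and P56-NPCs, from 46.0% to 60.4% between A-iSCs and ASTs, from 48.2% to 59.4% between P0-NPCs and ASTs and from 49.6% to 37.7% between P56-NPCs and ASTs.

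Samples with the same replicate number did not deviate together at a correlation over 0.1 in every pair of any comparison (between A-iSCs and ASTs the correlations of deviations were -0.378, 0.335 and 0.427 for numbers 1 to 3, between P0-NPCs and P56-NPCs 0.018, 0.10 and 0.050, and in the other comparisons -0.140 to 0.066), so the numbers were not taken as pairs. With the replicate block, 8 factors were called higher in P0-NPCs than in ASTs, 2 in P56-NPCs than in ASTs and 1 lower in A-iSCs than in ASTs, and the counts of the other 3 comparisons were unchanged. Depth limits Neurog1 in all groups, Neurod4 and Neurod1 outside P0-NPCs, Neurog2 in ASTs, and Neurod2, Neurod6 and Tbr1 in ASTs and A-iSCs, which rest on 29 fragments or fewer per group.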
